A study of Mus musculus with 4 samples.

Results

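The 37 genes described here encode enzymes, carriers and electron acceptors of mitochondrial fatty acid oxidation (22 genes) and of the pyruvate dehydrogenase complex and citric acid cycle (15 genes). They were taken by symbol as members of these pathways, by a rule that uses no measured value, although the list was drawn up with earlier results of these data known. All 37 were found among the 16408 nuclear genes of the files. The RNA came from single cells of the mouse aorta, sorted to enrich endothelial cells (EC). They were profiled to compare mice lacking Epas1 in the endothelium with control mice. EPAS1, also called HIF2α, is a hypoxia-inducible transcription factor. The 2 groups were Epas1 EC-KO (Epas1 fl/fl, Cdh5Cre/+, n = 2 mice) and Epas1 EC-WT (Epas1 fl/fl, Cdh5+/+, n = 2 mice), so that both carried the floxed alleles and only the first carried the tamoxifen-inducible Cre driven by the endothelial Cdh5 promoter. Both groups were C57BL/6, matched for age and sex, and received tamoxifen at 6 weeks of age (2 mg a day for 5 days), with cells taken 2 weeks later. Adventitia was removed, the aorta was digested and cells were sorted as CD31+ CD45- and negative for the dead cell dye TO-PRO-3, with 1 plate of 384 wells for each mouse. The comparison therefore rests on single plates of single mice, and a difference between plates cannot be told apart from a difference between mice.

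Long-chain fatty acids that enter a cell are joined to coenzyme A by acyl-CoA synthetases, carried into mitochondria by the carnitine shuttle, and shortened by repeated turns of β-oxidation, each of which passes electrons to the respiratory chain and releases acetyl-CoA. Pyruvate dehydrogenase makes acetyl-CoA from pyruvate, and the citric acid cycle oxidises acetyl-CoA from both sources. Endothelial cells are known for a high rate of glycolysis, and their fatty acid oxidation is known to supply carbon for nucleotide synthesis and to support redox balance.

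A well was kept as a cell when it held at least 1000 unique molecular identifiers (UMIs, each a captured mRNA molecule) on nuclear genes and at most 25% of its UMIs on mitochondrial genes. This left 157 and 98 cells for the mice labelled EC-KO and 114 and 72 cells for those labelled EC-WT, or 441 cells in all. The study's methods count more cells from EC-WT than from EC-KO, which is the reverse of the order by label in these files. Levels are given as UMIs per 1000000 nuclear UMIs (CPM) over all cells of a mouse, with totals of 1088901, 851118, 648977 and 566088 UMIs for EC-KO mouse 1, EC-KO mouse 2, EC-WT mouse 1 and EC-WT mouse 2. A UMI marks 1 captured 3′ end whatever the transcript's length, so CPM values were compared between genes without division by length, although capture may differ between transcripts. The plate of EC-KO mouse 1 stood apart in its ribosomal RNA gene Rn45s, which took 7.21% of its UMIs against 3.71% to 4.02% on the other plates. No well in rows L to P of any plate was kept. Those 480 wells held 28791 nuclear UMIs and 48 UMIs of the 37 genes together, and 13 of the 37 had none there.

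Epas1 itself (chr17:86753700-86833410, + strand, GRCm38) was not lower in the mice labelled EC-KO. Its level was 2930 and 3148 CPM in the mice labelled EC-KO and 3324 and 2351 CPM in those labelled EC-WT, and the groups overlapped. The log2 difference was 0.13 (SE 0.22, adjusted p = 0.951 by edgeR's quasi-likelihood test). It was -0.12 without EC-WT mouse 2. A 3′ tag outside the deleted part of a gene does not report the deletion, and where the deleted part lies was not compared with the tags here. The genotype of each plate could not be checked on Epas1, and the cell numbers run against the methods, so the groups are called by their labels throughout and the direction of every difference between them depends on those labels.

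Because EPAS1 binds the letters ACGTG or GCGTG at DNA, the 250 bases before each member's RefSeq start (GRCm38.p6) were searched for them on both strands. RefSeq promoters matched 34 of the 37 genes, and Decr1, Idh3a and Acaa2 had no match. At least 1 match was present in 21 of the 34 genes (61.8%), against 11226 of 27025 genes (41.5%) over the whole table. The members' promoters also had a higher GC content, with a median of 59.6% against 52.4%, and the part of base composition in the count was not tested. The palindromic site of NRF1, a regulator of mitochondrial genes, occurred in its full form in 1 member, Etfdh, or 2.94% against 0.877% of all genes. The nuclear receptor half-site AAGGTCA occurred in 1 member, Acadm, or 2.94% against 4.70%. The sequences of the carnitine shuttle genes, which form 1 pathway step, and of Pdhb, which had the lowest p of the members between the labelled genotypes, are printed below in lower case with each match to ACGTG or GCGTG in capitals as it reads on the gene's strand. Cpt2 had matches 97 and 80 bases before its start and Pdhb 248 and 23 bases before its start, whereas the Cpt1a and Slc25a20 windows held none. The windows are chr19:3323051-3323300 (+) for Cpt1a, chr9:108661886-108662135 (+) for Slc25a20, chr4:107923590-107923839 (-) for Cpt2 and chr14:8172993-8173242 (-) for Pdhb. The RefSeq starts used differ from the gene positions printed below. For Cpt1a the window lies wholly inside the printed gene span, so the bases before that span were not searched.
Cpt1a: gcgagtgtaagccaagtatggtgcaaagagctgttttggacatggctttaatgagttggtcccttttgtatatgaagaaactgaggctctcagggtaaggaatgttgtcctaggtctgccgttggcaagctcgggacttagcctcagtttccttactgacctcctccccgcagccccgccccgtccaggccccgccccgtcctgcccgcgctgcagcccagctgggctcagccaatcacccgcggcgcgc
Slc25a20: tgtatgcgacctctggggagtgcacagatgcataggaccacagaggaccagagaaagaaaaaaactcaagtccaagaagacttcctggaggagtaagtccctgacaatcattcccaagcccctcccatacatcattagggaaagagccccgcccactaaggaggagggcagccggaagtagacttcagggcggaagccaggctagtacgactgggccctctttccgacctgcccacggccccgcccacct
Cpt2: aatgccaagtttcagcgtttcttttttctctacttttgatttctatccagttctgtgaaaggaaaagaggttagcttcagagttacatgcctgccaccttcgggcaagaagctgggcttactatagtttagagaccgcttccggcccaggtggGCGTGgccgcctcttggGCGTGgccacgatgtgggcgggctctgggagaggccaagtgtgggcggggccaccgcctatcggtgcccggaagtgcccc
Pdhb: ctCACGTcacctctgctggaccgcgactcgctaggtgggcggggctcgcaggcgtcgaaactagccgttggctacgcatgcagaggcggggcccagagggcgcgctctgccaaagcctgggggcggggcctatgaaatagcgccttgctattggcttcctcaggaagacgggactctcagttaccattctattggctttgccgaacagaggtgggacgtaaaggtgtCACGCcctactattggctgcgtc

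The 37 genes together made up 2514 and 2726 CPM in the mice labelled EC-KO and 2547 and 2512 CPM in those labelled EC-WT (mean 2575 ± 102, SD, n = 4). Citric acid cycle genes were the most abundant group, and among single genes the order was led by Ogdh, Idh3b, Mdh2 and Cs. A cell held UMIs of a median of 10, 11.5, 7 and 8 different members in EC-KO mice 1 and 2 and EC-WT mice 1 and 2, which follows the median depth of 5796, 7419, 3779 and 5752.5 UMIs per cell. With every cell thinned to 1000 UMIs the median was 2 members in each mouse. Cells without a UMI of any member numbered 4, 2, 2 and 1.

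The highest level belonged to Ogdh (chr11:6291633-6356642, + strand), the decarboxylating subunit of the oxoglutarate dehydrogenase complex, at 235, 270.2, 269.7 and 246 CPM in the order EC-KO mouse 1, EC-KO mouse 2, EC-WT mouse 1 and EC-WT mouse 2, which is used for every set of 4 values that follows. It ranked 626th of 16408 nuclear genes and had a UMI in 60.9% of cells, or in 19.6% after thinning to 1000 UMIs. Idh3b (chr2:130279309-130284547, - strand), a non-catalytic subunit of the NAD-dependent isocitrate dehydrogenase, followed at 138, 159, 179 and 175 CPM. Mdh2 (chr5:135778480-135790398, + strand), the mitochondrial malate dehydrogenase, stood at 148, 179, 142 and 152 CPM. The highest of these Idh3b and Mdh2 values lay below the lowest Ogdh value. Cs (chr10:128337734-128362479, + strand), citrate synthase, which opens the cycle, had 126, 141, 119 and 208 CPM, with EC-WT mouse 2 above the rest. Hadhb (chr5:30155248-30184593, + strand), the thiolase subunit of the trifunctional protein, was the most abundant β-oxidation gene with 105, 128, 123 and 113 CPM. Cpt1a was close to it at 106, 101, 129 and 101 CPM, and these 2 genes overlapped.

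Across the whole order, neighbouring genes were rarely separated by more than the spread between mice. Of the 36 pairs of neighbours by mean level, the ranges over the 4 mice were apart in 2, Ogdh above Idh3b and Cpt2 above Acads. The same gene of the pair was higher in all 4 mice for 3 pairs. The order therefore holds in steps rather than gene by gene. Acads, Acsl3 and Acsl1 closed it at means of 10.96, 10.01 and 7.29 CPM, at or under 33 UMIs each over all cells.

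**Figure D1:**
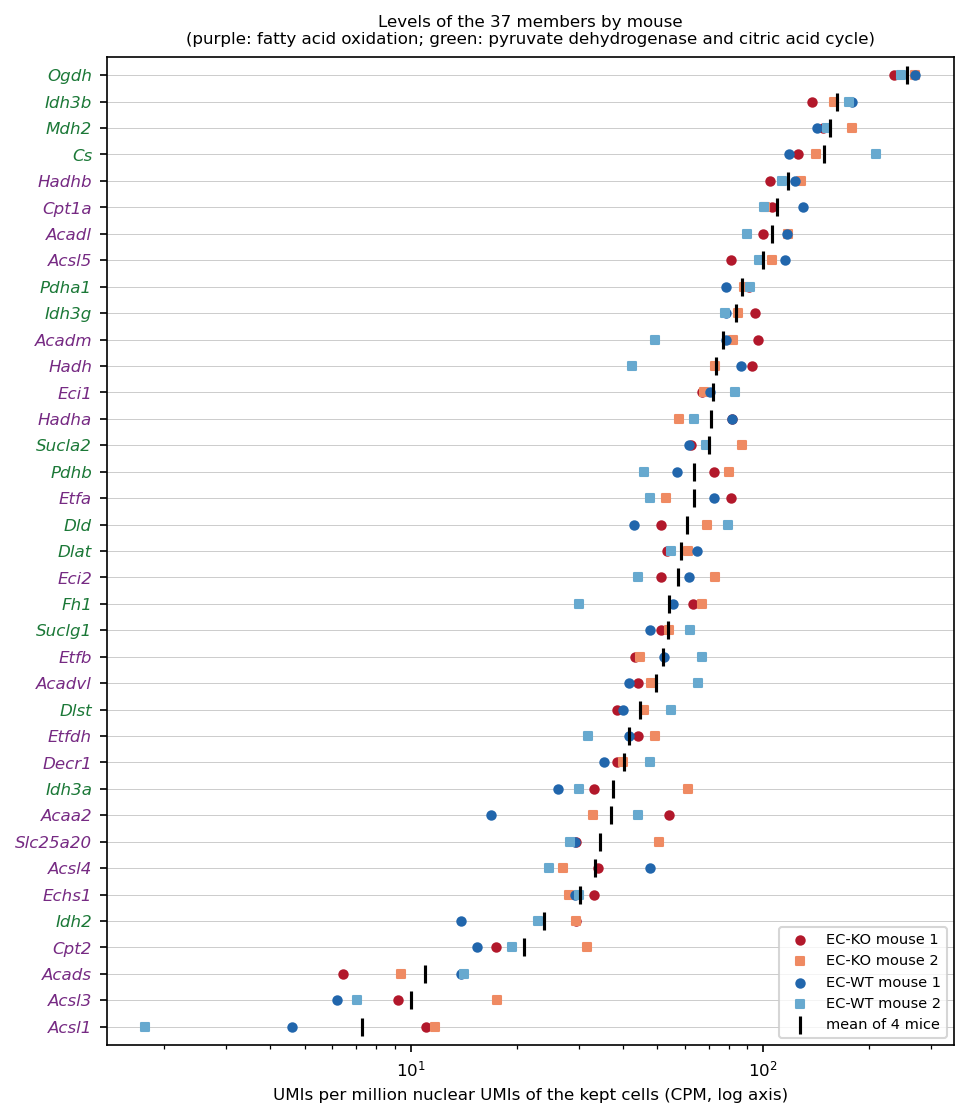
Level of each of the 37 genes in the 4 mice, in CPM on a log axis, with points for single mice coloured by labelled genotype and genes ordered by mean level. Ogdh stands apart at 235 to 270.2 CPM, most neighbours overlap, and the 2 labelled genotypes are interleaved for most genes.

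By role, the 4 acyl-CoA synthetases, which activate fatty acids, summed to a mean of 150.5 CPM over the 4 mice. The 3 genes of the carnitine shuttle summed to 165 CPM. The acyl-CoA dehydrogenases, which carry out the first step of each turn, summed to 244 CPM and the 5 genes of the steps after it to 329 CPM. The 3 auxiliary genes for unsaturated acids, Decr1, Eci1 and Eci2, summed to 170.2 CPM, and the 3 genes of the electron transfer flavoprotein chain to 157 CPM. The pyruvate dehydrogenase complex summed to 271 CPM with 4 genes and the citric acid cycle proper to 1089 CPM with 11.

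**Figure D2:**
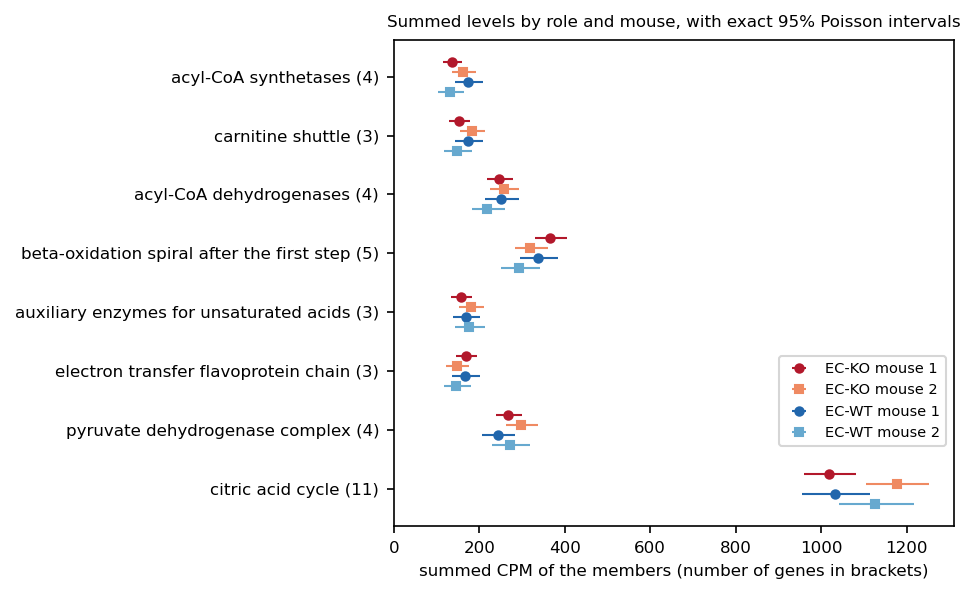
Summed level of the members of each role in each of the 4 mice, in CPM, with bars for 95% exact Poisson intervals that cover counting error only. The citric acid cycle sum lies between 1019 and 1177 CPM, and within each role the 2 labelled genotypes sit close together.

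Within the acyl-CoA synthetase family, the kept cells carried mainly Acsl5, which gave 59.9%, 65.2%, 66.4% and 74.3% of the family's UMIs. Acsl4, which prefers arachidonic acid, gave a mean of 22.05% and was below Acsl5 in each of the 4 mice. Acsl3 and Acsl1 gave 6.65% and 4.85%. Acsl1 (chr8:46471037-46536051, + strand), the main synthetase of heart and fat, had the lowest mean level of all 37 genes. It had 12, 10, 3 and 1 UMIs. In both mice labelled EC-KO Acads was below it, and with CPM averaged over cells Acsl3 was the lowest.

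Over all UMIs, the carnitine shuttle also had the same order in each mouse. Cpt1a (chr19:3322334-3385733, + strand), the outer membrane carnitine palmitoyltransferase that sets the rate of long-chain fatty acid entry, was 2.00 to 4.42 times Slc25a20 in each mouse. Slc25a20 (chr9:108662088-108684641, + strand), which exchanges acylcarnitine for carnitine across the inner membrane, had 29.4, 50.5, 29.3 and 28.3 CPM. Cpt2 (chr4:107903981-107923610, - strand), which returns the acyl group to coenzyme A inside, was lowest at 17.4, 31.7, 15.4 and 19.4 CPM. EC-KO mouse 2 was the highest of the 4 for both Slc25a20 and Cpt2. The order Cpt1a above Slc25a20 above Cpt2 was present in 4 of 4 mice.

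Among the acyl-CoA dehydrogenases, which divide fatty acids by chain length, the long-chain enzyme gene Acadl was highest in every mouse and gave a mean of 43.5% of the family's UMIs. The medium-chain gene Acadm gave 31.2%, the very-long-chain gene Acadvl 20.7% and the short-chain gene Acads 4.56%. Acadm was above Acadvl in 3 of 4 mice and Acads was below the others in 4 of 4. The trifunctional protein is built from both subunits in equal number, and its genes Hadha and Hadhb differed in the same direction in all mice. Hadha (chr5:30118304-30155162, - strand), which carries the hydratase and dehydrogenase activities, had 81.7, 57.6, 81.7 and 63.6 CPM, or 0.450 to 0.781 times Hadhb. These 2 genes lie next to each other on chromosome 5 on opposite strands.

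Electrons leave the acyl-CoA dehydrogenases through the electron transfer flavoprotein, whose subunits Etfa and Etfb had no fixed order, with Etfa higher in 3 of 4 mice. Etfa (chr9:55454508-55512243, - strand) had 80.8, 52.9, 72.4 and 47.7 CPM. Etfb (chr7:43444083-43457800, + strand) had 43.2, 44.6, 52.4 and 67.1 CPM. Etfdh, which passes these electrons on to ubiquinone, had a mean of 41.7 ± 7.35 CPM. Of the remaining steps, Hadh and Echs1, the short-chain dehydrogenase and hydratase, had means of 73.6 and 30.1 CPM, and the thiolase gene Acaa2 had 37.0 CPM.

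The 4 genes of the pyruvate dehydrogenase complex had mean shares between 21.8% and 32.4%. Pdha1 (chrX:160122209-160138413, - strand), the catalytic E1 subunit, gave a mean of 32.4% of its 4 genes and was above the other 3 in 4 of 4 mice at 90.9, 88.1, 78.6 and 91.9 CPM. Its partner Pdhb gave 23.5%, the E3 gene Dld 22.3% and the E2 gene Dlat 21.8%. Dlat (chr9:50634633-50659780, - strand) had 53.3, 61.1, 64.7 and 54.8 CPM. Dld (chr12:31331277-31351453, - strand), whose product also serves oxoglutarate dehydrogenase, had 51.4, 69.3, 43.1 and 79.5 CPM. The order of Pdhb, Dlat and Dld changed from mouse to mouse.

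Isocitrate dehydrogenase 3 and oxoglutarate dehydrogenase were uneven. Idh3b gave 51.9%, 52.1%, 63.04% and 61.9% of the 3 IDH3 genes, and Idh3a, which holds the catalytic site, a mean of 13.1%. Idh3g (chrX:73778963-73786897, - strand), the other non-catalytic subunit, lay between at 94.6, 84.6, 78.6 and 77.7 CPM. This order held in 4 of 4 mice. Idh2, the mitochondrial NADP-dependent isocitrate dehydrogenase, gave a mean of 7.74% of the 4 mitochondrial isocitrate dehydrogenase genes and was below each IDH3 gene in every mouse. Ogdh was 4.48 to 6.73 times Dlst, its E2 partner. For succinate-CoA ligase, the ATP-forming β subunit gene Sucla2 gave 56.4% and the shared α subunit gene Suclg1 43.6%, with Sucla2 higher in 4 of 4 mice.

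**Figure D3:**
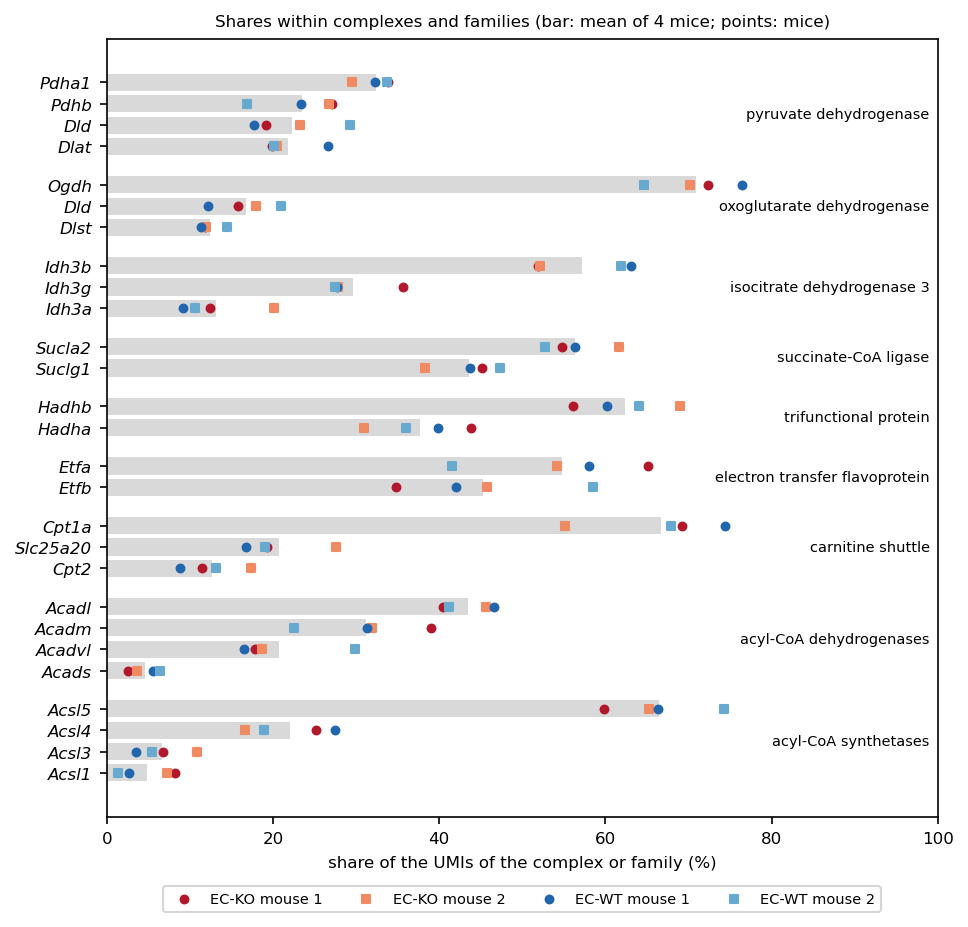
Share of each gene, in percent, among the UMIs of its family or complex in each of the 4 mice (points) and as the mean of the mice (bars). The pyruvate dehydrogenase genes have mean shares of 21.8% to 32.4%, whereas Idh3b, Acsl5 and Ogdh each give over 51% of their assemblies in every mouse.

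Between the labelled genotypes, 0 of the 35 members tested were called at an adjusted p of 0.05 by edgeR's quasi-likelihood test on the summed UMIs of each mouse, against 10 of all 8385 genes tested (0.119%). By DESeq2 the counts were 0 of 37 members and 12 of 10252 genes (0.117%). The fatty acid oxidation genes summed to 1226 and 1250.1 CPM in the mice labelled EC-KO and to 1271 and 1113 CPM in those labelled EC-WT, so that the groups overlapped (1238 ± 17.1 against 1192 ± 112, log2 ratio 0.05). The pyruvate dehydrogenase and citric acid cycle genes summed to 1288 and 1476 CPM against 1276 and 1399 CPM (1382 ± 133 against 1337 ± 87.1, log2 ratio 0.05), and these groups overlapped too. EC-KO mouse 2 and EC-WT mouse 1 shared a flow cell by their file labels, and within that pair the log2 ratios were -0.02 and 0.21. With 2 mice against 2, an exact permutation test of such a sum cannot give a two-sided p below 0.333.

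The 10 genes called were all higher in the mice labelled EC-KO, and 7 of them were from the list of smooth muscle markers. Acsl1 and Acsl3 did not pass edgeR's filter on low counts and were not tested. At an unadjusted p under 0.05 edgeR gave 1 member of 35, Pdhb, against 553 of all 8385 genes (6.6%). DESeq2 gave 0 of 37 members, against 173 of the 10252 genes to which it gave an adjusted p (1.69%). The log2 difference (EC-KO over EC-WT) of the 35 ranged from -0.80 to 0.76, with 21 above and 14 below 0 and a median of 0.09, against -0.01 over all genes tested. The median was 0.05 for the 20 fatty acid oxidation genes tested and 0.11 for the 15 pyruvate dehydrogenase and citric acid cycle genes. With each mouse left out, the median over all members tested ran from 0.02 to 0.16. The interval of the difference lay within 1 on the log2 scale in either direction for 22 of the 35, so that for the other 13 it reached a 2-fold difference.

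In 8 of the 35 (22.9%), both mice labelled EC-KO were above both labelled EC-WT, against 15.7% of all genes tested, and in 4 (11.4%) both were below, against 20.7%. Among the 7714 genes tested at the members' own levels (10.96 to 255 CPM), these shares were 15.97% and 20.1%. The 8 were Pdhb, Fh1, Idh3a, Idh2, Acadm, Slc25a20, Etfdh and Idh3g, and the 4 were Acads, Etfb, Idh3b and Eci1. The untested Acsl1 and Acsl3 also had both mice labelled EC-KO above.

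Pdhb (chr14:8165996-8173025, - strand), whose promoter is printed above, had the lowest p of the members. It had 72.6 and 79.9 CPM in the mice labelled EC-KO and 57.01 and 45.9 CPM in those labelled EC-WT, from 79, 68, 37 and 26 UMIs. The groups did not overlap, with 76.2 ± 5.19 against 51.5 ± 7.84 CPM. The log2 difference was 0.59 (SE 0.26, 95% interval 0.01 to 1.17), at an edgeR p of 0.0462 before and 0.749 after adjustment. The other genes of its complex had log2 differences of 0.11 for Pdha1, -0.04 for Dlat and 0.02 for Dld.

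In the citric acid cycle, the largest differences were those of Idh3a, Idh2 and Fh1. Idh3a (chr9:54586334-54604661, + strand) had 33.1 and 61.1 CPM against 26.2 and 30.03 CPM, with EC-KO mouse 2 well above the other 3 (log2 difference 0.76, SE 0.39, edgeR adjusted p = 0.760). Its partners differed by 0.24 (SE 0.24) for Idh3g and -0.22 (SE 0.19) for Idh3b. Idh2 (chr7:80094846-80115392, - strand) had 29.4 CPM in both mice labelled EC-KO and 13.9 and 22.96 CPM in the others, from no more than 32 UMIs a mouse (log2 difference 0.72, SE 0.43, edgeR adjusted p = 0.815). Fh1 (chr1:175600374-175625635, - strand), the fumarase gene, had 63.4 and 66.97 CPM against 55.5 and 30.03 CPM, so that the low value of EC-WT mouse 2 gave most of the gap (0.62, SE 0.32, edgeR adjusted p = 0.771). Ogdh, with the smallest error of the members, differed by 0.00 (SE 0.18, 95% interval -0.40 to 0.41). Its difference was 0.74 with every cell thinned to 1000 UMIs (edgeR adjusted p = 0.636) and -0.17 with read counts.

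In fatty acid oxidation, Acads (chr5:115110299-115119346, - strand) had the most negative difference. Its 6.43 and 9.40 CPM in the mice labelled EC-KO and 13.9 and 14.1 CPM in those labelled EC-WT came from 7, 8, 9 and 8 UMIs (log2 difference -0.80, SE 0.56, 95% interval -2.03 to 0.44, edgeR adjusted p = 0.857). The medium-chain gene Acadm (chr3:153922357-153944632, - strand) had a positive difference, with 96.4 and 82.2 CPM against 78.6 and 49.5 CPM (0.51, SE 0.28, edgeR adjusted p = 0.779). Acaa2 (chr18:74779197-74806208, + strand), the mitochondrial 3-ketoacyl-CoA thiolase, had 54.2 and 32.9 CPM against 16.9 and 44.2 CPM, and its groups overlapped (0.60, SE 0.45, edgeR adjusted p = 0.870).

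For the carnitine shuttle the log2 difference was -0.12 for Cpt1a (SE 0.23, 95% interval -0.62 to 0.38), 0.48 for Slc25a20 (SE 0.38) and 0.51 for Cpt2 (SE 0.48), with edgeR adjusted p of 0.960, 0.874 and 0.893. Higher values of Slc25a20 and Cpt2 came from EC-KO mouse 2 alone. Of the electron carriers, Etfb had a difference of -0.40 (SE 0.29) and Etfdh (chr3:79603788-79629500, - strand), at 44.1 and 49.3 CPM against 41.6 and 31.8 CPM, one of 0.37 (SE 0.32). Their edgeR adjusted p were 0.857 and 0.885. Etfa stood at 0.20 (SE 0.32). The trifunctional protein genes differed by -0.02 for Hadha and 0.01 for Hadhb.

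**Figure D4:**
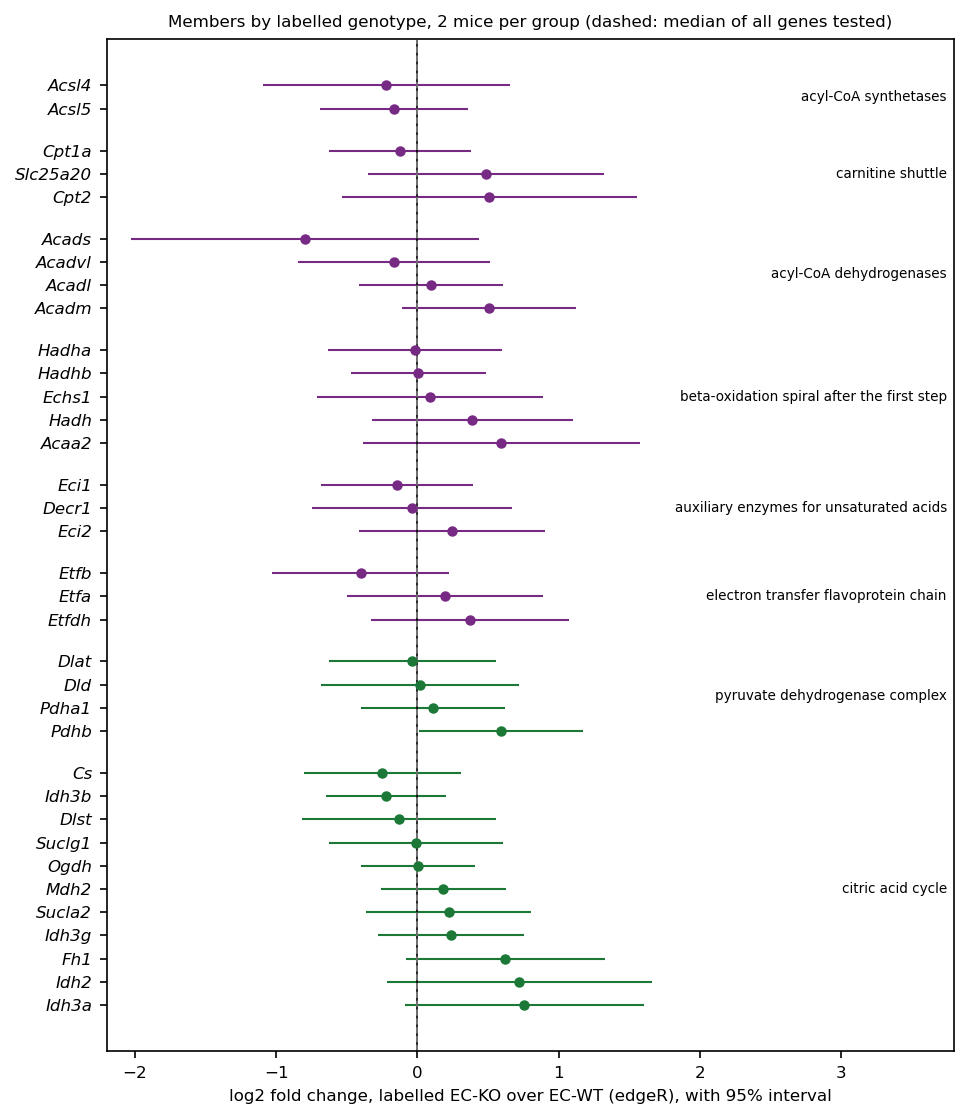
Log2 difference of the mice labelled EC-KO over those labelled EC-WT for the 35 members tested, with 95% intervals from the edgeR quasi-likelihood fit. The values run from -0.80 for Acads to 0.76 for Idh3a, and every interval but that of Pdhb (0.01 to 1.17) includes 0.

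Markers of smooth muscle moved with the labelled genotype. The summed level of 11 such markers was 4890 and 6791 CPM in the mice labelled EC-KO against 974 and 1313 CPM in those labelled EC-WT, and that of 8 fibroblast markers 3227 and 1731 CPM against 884 and 1433 CPM. Of 14 endothelial markers the sum was 10434, 13108, 13666 and 11723 CPM. Separated by label as well were 10 lipid-handling markers, at 561 and 379.5 CPM against 578 and 685 CPM, with none of the 4 tested called. The same held for 8 cardiomyocyte markers, at 23.9 and 18.8 CPM against 9.25 and 12.4 CPM, of which Myh6, Actc1, Ckm, Mb and Nppa had no UMI. The sum of 8 adipocyte markers was 1.84 and 0 CPM against 4.62 and 3.53 CPM, and Adipoq, Plin1, Cidec and Adig among them had no UMI in the kept cells. Without the cluster of smooth muscle-like cells described below, the log2 difference of Acadm was 0.24, of Idh3a 0.56 and of Idh2 0.55. That of Pdhb was 0.52 and of Idh3g 0.09, whereas that of Fh1 was 0.65, of Slc25a20 0.58 and of Etfdh 0.39. No member was called there either by edgeR, and 0 of 34 tested had an unadjusted p under 0.05. Beyond this, the part of these markers in the members' values was not tested. In whole-plate sums, fewer cells of a type and less RNA per cell cannot be told apart.

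No other gene of these pathways was called by edgeR, and 2 of the 71 tested (2.82%) had an unadjusted p under 0.05, against 6.6% of all genes tested. For their groups without overlap, the shares over all genes tested were 15.7% higher and 20.7% lower. Of 28 further fatty acid oxidation genes, 21 were tested, with none called, a median log2 difference of -0.09 and 2 higher (9.52%) and 5 lower (23.8%) without overlap. Within this list the largest differences were those of Hibch, of valine breakdown, at -0.70 (SE 0.53), the carnitine importer gene Slc22a5 at -0.60 (SE 0.40) and the malonyl-CoA decarboxylase gene Mlycd at -0.57 (SE 0.51). Among 17 peroxisomal β-oxidation genes 10 were tested, none called, with a median of -0.08 and 1 higher and 1 lower without overlap (10.0% each), and the largest were Acaa1a, a peroxisomal thiolase gene, at -0.46 (SE 0.34), Scp2, a sterol carrier and thiolase gene, at 0.32 (SE 0.21) and Hacl1, of α-oxidation, at -0.32 (SE 0.51).

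For 28 other genes of the citric acid cycle and its feeders, 19 were tested and none was called, with a median of -0.05 and 0 higher against 5 lower (26.3%) without overlap. The aspartate aminotransferase gene Got2 differed by -0.57 (SE 0.28) and the citrate carrier gene Slc25a1 by -0.39 (SE 0.36).

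Of 16 regulators, such as nuclear receptors and sirtuins, 11 were tested with none called, a median of 0.12, and 1 higher (9.09%) and 3 lower (27.3%) without overlap. The mitochondrial deacetylase gene Sirt3 had 6.43 and 9.40 CPM against 20.03 and 14.1 CPM (-1.09, SE 0.55, edgeR adjusted p = 0.760). Esrra, a nuclear receptor gene, had a difference of 0.46 (SE 0.62), which changed sign with read counts and without EC-WT mouse 1. The AMP kinase gene Prkaa1 had one of -0.43 (SE 0.37). Of 19 genes of fatty acid supply and storage, 10 were tested and none was called, with a median of -0.32 and, of those 10, 1 higher against 5 lower without overlap. Meox2, a transcription factor gene of fatty acid transport in heart endothelium, had 13.8 and 5.87 CPM against 27.7 and 28.3 CPM (-1.41, SE 0.51, edgeR adjusted p = 0.635). The monoglyceride lipase gene Mgll differed by -0.43 (SE 0.22) and the fatty acid translocase gene Cd36 by -0.40 (SE 0.34). The Cd36 difference changed sign without EC-WT mouse 2.

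Cells were then grouped into 6 clusters, a number set in advance, with the members and the other pathway genes left out of the variable genes. A cluster of 24 cells was led by Fabp4 and Cd36, genes of fatty acid binding and uptake, and held 6, 3, 8 and 7 cells of the 4 mice. Another of 15 cells, with 8, 4, 1 and 2 cells, was led by Tagln, Myh11, Acta2 and Myl9 and is called smooth muscle-like. The levels that follow are a description of clusters, with no test.

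Over all UMIs, the summed level of the fatty acid oxidation genes differed little between the clusters. It ran from 1194 CPM in the cluster of lowest depth (median 2199 UMIs a cell) to 1295 CPM (95% exact Poisson interval 1108 to 1505) in the Fabp4 and Cd36 cluster. Against cells of neither this nor the smooth muscle-like cluster in the same mouse, it had log2 ratios of -0.45, 0.54, 0.27 and -0.04 for these genes (mean 0.08 ± 0.42, SD, n = 4), which point in both directions. With every cell thinned to 1000 UMIs, this cluster stood higher, at 1708 CPM from 41 UMIs (95% exact Poisson interval 1226 to 2318) against 1131 to 1267 CPM in the other 5 clusters, and the mean log2 ratio was 0.45. For pyruvate dehydrogenase and citric acid cycle genes the unthinned ratios were 0.00, -0.15, 0.30 and -0.19 (mean -0.01 ± 0.22), and the mean was -0.43 after thinning, from 25 UMIs. Within the cluster, Acadm had 152 CPM against 68.9 CPM in cells of neither cluster, from 20 UMIs and in 3 of 4 mice. EC-WT mouse 1 gave 11 of these UMIs, and without it the values were 91.6 against 69.9 CPM. Etfdh had 0 UMIs, which allows up to 28.1 CPM, against 43.6 CPM. Mdh2 had 99.04 against 155 CPM from 13 UMIs (95% exact Poisson interval 52.7 to 169), a difference within counting error for the pooled cells. It was lower in 4 of 4 mice, in EC-WT mouse 2 at 152.2 against 152.9 CPM. With every cell thinned to 1000 UMIs, Mdh2 had 0 against 134 CPM. Cpt1a stood at 91.4 against 111 CPM, from 12 UMIs. Slc25a20 had 76.2 against 33.8 CPM from 10 UMIs, higher in 3 of 4 mice. EC-KO mouse 2 gave 6 of these 10 UMIs, and without it the values were 38.2 against 28.4 CPM.

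The summed level of citric acid cycle genes stood out in the smooth muscle-like cells, though not that of every single gene. Their sum with pyruvate dehydrogenase was 1860 CPM (95% exact Poisson interval 1666 to 2071) against 1218 to 1426 CPM in the other 5 clusters, and the log2 ratios to cells of neither cluster in the same mouse were 0.33, 0.50, 0.59 and 0.56 (mean 0.50 ± 0.11). EC-WT mice 1 and 2 gave 1 and 2 of these cells. Fatty acid oxidation genes did not share this, with 1225 CPM and ratios that point in both directions (mean 0.04 ± 0.24). Acsl1 had 50.1 CPM against 5.63 CPM in cells of neither cluster, from 5, 3, 0 and 1 UMIs in the 4 mice. Acsl5 had 33.4 against 101 CPM from 1, 4, 0 and 1 UMIs, so that the order of these synthetase genes within the cluster was not resolved, and Acsl4 had 0 UMIs, which allows up to 20.5 CPM, against 36.6 CPM. Acadm had 212 against 68.9 CPM, its 38 UMIs all from the mice labelled EC-KO. Of the citric acid cycle genes, Ogdh had 273 against 254 CPM and was higher in 1 of 4 mice. Idh3b had 145 against 157 CPM. Dlst had 27.9 against 45.4 CPM, lower in 4 of 4 mice. Cs had 239.5 against 135 CPM and Idh3g 156 against 81.2 CPM. EC-KO mouse 1 gave 19 of the 28 Idh3g UMIs, and without it the values were 78.7 against 80.96 CPM. For Sucla2 23 of 25 UMIs and for Idh3a 14 of 16 UMIs in this cluster came from EC-KO mouse 2, the mouse whose Idh3a level was the highest of the 4. Without it, Sucla2 had 23.6 against 65.3 CPM and Idh3a 23.6 against 31.7 CPM, each from 2 UMIs.

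**Figure D5:**
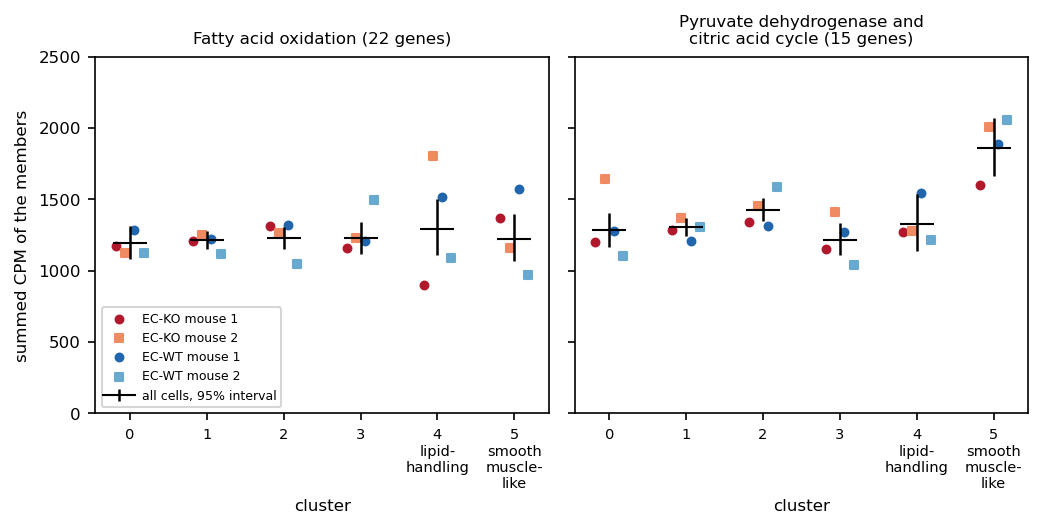
Summed level of the 22 fatty acid oxidation genes and of the 15 pyruvate dehydrogenase and citric acid cycle genes in each of 6 clusters, in CPM, with 95% exact Poisson intervals over the summed cells. The fatty acid oxidation sums lie between 1194 and 1295 CPM, and the citric acid cycle sum is highest in the smooth muscle-like cells at 1860 CPM.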

How the data were processed

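Per the labels, cells were processed by SORT-seq and the authors aligned reads with BWA (version 0.7.15) to GRCm38 (mm10), as the submitters' processing notes list. How reads with several matches or of either strand were counted is not given in the sources used here. The deposited counts were whole-number UMI barcodes and reads per gene and well, and the deposited transcript values were estimated counts corrected for UMI saturation. UMI counts were the main measure. No column of per-sample values was left out (0 columns not used).

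UMIs were summed over the kept cells of each mouse and tested with edgeR (version 4.0.16, quasi-likelihood fit, TMM scaling, filterByExpr, 2 against 2 mice, Benjamini-Hochberg adjustment). DESeq2 (version 1.42.0) was an alternative. Cells were clustered in Seurat (version 5.3.0, R 4.3.3) on 1981 variable genes and 10 principal components. The clustering resolution was raised in steps of 0.1 until at least 6 clusters were reached, which was at 0.7. Python 3.11.15 with numpy 2.4.6, pandas 2.3.3, scipy 1.17.1 and matplotlib 3.10.9 was used for the rest. Gene positions came from GENCODE's annotation of GRCm38. Poisson intervals (95%) cover counting error only. The same 384 well barcodes serve every plate. Genes were matched by symbol, and reads of members with close paralogs could be split between them. Since each mouse was 1 plate, p-values rest on the spread between these plates. For each gene, edgeR's fit draws that spread partly from the other genes tested.

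The members and the lists of related genes and markers were chosen with earlier results of these data known. Per-mouse values are given for the 6 members with the largest difference, the 10 largest without overlap between groups, the 6 most abundant, the carnitine shuttle and the subunits of 4 complexes, and the log2 difference for up to 3 genes of each related list. Leaving out Rn45s was chosen after seeing the data. 1 gene of the related lists is not reported here.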

Additional observations from a re-analysis of the deposited data

How the results depend on the processing

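No member was called in any of the alternatives fitted, with 10 to 37 members tested. All genes called numbered 10, and 12 by DESeq2, 17 with total UMI scaling, 115 with no filter on low counts, 22 with a minimum of 2000 UMIs, 17 with no limit on the mitochondrial share, 1 without the smooth muscle-like cluster, 0 without cells over 3 times the median depth, 0 with read counts, and 4 to 129 with each mouse left out, the 4 without EC-KO mouse 2 and the 129 without EC-WT mouse 1. The cause was not tested. Both counts of 0 are by edgeR, with 461 and 826 genes at an unadjusted p under 0.05. With cells thinned to 1000 UMIs, the median log2 difference of the members was -0.30 instead of 0.09 (10 members tested), the fatty acid oxidation sum -0.10 instead of 0.05, the ratios of the Fabp4 and Cd36 cluster -0.43 instead of -0.01 for pyruvate dehydrogenase and citric acid cycle genes and 0.45 instead of 0.08 for fatty acid oxidation genes, and the summed level 2470.3 instead of 2575 CPM. Leaving out each mouse gave -0.0381 to 0.15 for the fatty acid oxidation sum and -0.0549 to 0.14 for the pyruvate dehydrogenase and citric acid cycle sum. The pyruvate dehydrogenase and citric acid cycle sum was -0.15 with read counts and 0.21 between EC-KO mouse 2 and EC-WT mouse 1, which shared a flow cell. With read counts the difference changed sign for Idh3g (-0.10), Cpt1a (0.24), Cpt2 (-0.40), Hacl1 (0.50), Slc25a1 (0.0279) and Esrra (-0.68), and in all for 9 of the 35 members tested, Ogdh (-0.17) among them. Between those mice it changed sign for Epas1 (-0.0785), Slc25a1 (0.29), Cd36 (0.0783) and 8 of the 35 members tested, among them Etfa (-0.45), Hadh (-0.24) and Cs (0.25). With each mouse left out, it ranged from -0.12 to 0.42 for Epas1, -0.31 to 0.0943 for Cpt1a, -0.805 to 0.47 for Hacl1, -0.19 to 1.52 for Esrra and -0.87 to 0.27 for Cd36. It changed sign for 17 of the 35 members tested in at least 1 such fit, as for Etfa (-0.18 to 0.56), Hadh (-0.04 to 1.03) and Dld (-0.35 to 0.48). Of those that kept it, Acaa2 ranged from 0.06 to 1.39, Fh1 from 0.24 to 1.17, Acadm from 0.20 to 0.91 and Idh3a from 0.31 to 1.13. Slc25a20 ranged from 0.10 to 0.82, Idh2 from 0.41 to 1.09, Cpt2 from 0.08 to 0.88, Etfdh from 0.17 to 0.60 and Etfb from -0.56 to -0.24. Ogdh was the highest member in each of 4 ways of averaging. The replicate numbers pair nothing by the labels, and the deviations of same-numbered mice correlated at -0.0489 over genes. With the replicate block 8 genes and 0 members were called by edgeR, with 0 members at an unadjusted p under 0.05. The depth of 566088 to 1088901 UMIs a mouse leaves the least abundant member tested, Acads, with 7 to 9 UMIs a mouse.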

Other observations

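Among cells of 1000 to 2000 UMIs, the 22 fatty acid oxidation genes summed to 1010 CPM (99 UMIs in 68 cells, 95% exact Poisson interval 820 to 1229). In cells of 2000 to 4000 UMIs they summed to 1291 CPM (interval 1163 to 1429, which overlaps that of the lowest bin). In those of 4000 to 8000 UMIs they summed to 1230 CPM and in deeper cells to 1219 CPM. The lowest bin was below the next in 4 of 4 mice. Over all mice, the 15 pyruvate dehydrogenase and citric acid cycle genes showed no such step, with 1366, 1368, 1362 and 1351 CPM in the same bins. Single mice went both ways from the lowest bin to the next. EC-KO mice 1 and 2 went from 1481 to 1372 and from 1386 to 1481 CPM. EC-WT mice 1 and 2 went from 1232 to 1455 and from 1545 to 1051 CPM.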
